A study of Mus musculus with 12 samples.

Results

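The genes described here are the PARP family members *Parp1*, *Parp2*, *Parp3*, *Parp9*, *Parp10*, *Parp12* and *Parp14* with *Dtx3l*, the ubiquitin ligase that pairs with PARP9. They were picked by gene name, and all 8 were found among its 23022 listed genes. *Parp9*, *Dtx3l*, *Parp14*, *Parp10* and *Parp12* are called the 5 interferon-linked members, and *Parp1*, *Parp2* and *Parp3* the 3 DNA-damage members. RNA was measured by poly(A) RNA-seq in B16-F10 cells, a C57BL/6 mouse melanoma line that grows in culture. The study asked how loss of the Muscleblind-like RNA-binding proteins alters the response of these cells to IFNγ. There were 12 libraries, 3 in each of 4 conditions.

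NTC cells carried a non-targeting control guide, which the sample labels write as no template control, and were either unstimulated or treated with IFNγ. DKO cells carried a paired guide against *Mbnl1* and *Mbnl2* and were unstimulated or treated in the same way. Both genotypes thus share the Cas9 transgene, the guide vector and its drug selection. They do not share cutting by Cas9, since the control guide is non-targeting, and the part of this in the genotype differences was not tested. The Cas9 line came from 1 sorted clone, while the edited cells were used as a polyclonal population in which some alleles can be unedited. The labels give neither dose nor duration, and the study's text gives both, with a treatment of a single day at 1 concentration. Nothing in the labels says that replicates were separate cultures, so p-values measure the spread between these libraries, which may be technical. Values are in TPM, a transcript's length-corrected share of a library, from which read depth cannot be recovered. Each difference below is on the log2(TPM + 1) scale, which understates changes of genes near 1 TPM, and a gene passed the test at an adjusted p under 0.05.

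PARP enzymes take NAD apart and attach its ADP-ribose to proteins or nucleic acids. PARP1, PARP2 and PARP3 bind broken DNA, and the first pair build ADP-ribose chains there that recruit repair factors. PARP9, PARP10, PARP12 and PARP14 are known as interferon-stimulated genes in many cells, where IFNγ acts through its receptor and JAK kinases; PARP9 and PARP14 carry macrodomains, which bind ADP-ribose.

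The targeted genes were read first. NTC libraries held 56.8, 57.0 and 55.6 TPM of *Mbnl1* untreated and 60.5, 63.9 and 63.3 TPM treated, against 41.3, 41.1 and 44.0 TPM, and 44.9, 42.7 and 47.5 TPM with IFNγ, in DKO libraries. *Mbnl2* ran from 99.2 to 107 TPM over the 6 NTC libraries and from 83.9 to 98.0 TPM over the 6 DKO libraries. Each DKO library thus held less of both RNAs than any NTC library, as the labels have it, but RNA remained, and TPM do not tell edited from unedited transcripts. The 7 melanocyte genes used as markers of this line (*Mitf*, *Sox10*, *Dct*, *Tyr*, *Tyrp1*, *Pmel* and *Mlana*) were present in every library and summed to between 16650 and 18640 TPM in NTC and between 11120 and 12410 TPM in DKO libraries. Of 12 markers of other cells, *Cd3e*, *Cd8a*, *Ptprc*, *Adgre1*, *Dcn* and *Cdh5* were listed at 0 in all libraries. The 12 summed to between 3.04 and 4.50 TPM in NTC and between 5.71 and 9.47 TPM in DKO libraries; the most abundant was *Cd68*, a lysosomal gene of macrophages, which reached 6.49 TPM. The lower melanocyte and higher *Cd68* levels move with genotype, and some of these markers also moved with IFNγ. *Col1a1*, a fibroblast gene and the other tested marker of the 12, was under 1 TPM in all 6 NTC libraries (at most 0.714) and above 1 TPM in all 6 DKO libraries, so it met the filter only through these and had to differ. *Cd68* rose in treated DKO cells (0.83, adjusted p = 0.00551, called in 21 of 21 fits). *Csf1r*, also a macrophage marker, did not exceed 0.307 TPM in any library. Of the 7 melanocyte markers, 4 were called higher and 1 lower with IFNγ in NTC cells and 1, *Pmel*, higher in DKO cells. Over all tested genes, 7.31% were higher and 4.78% lower in NTC cells, and 0.677% were higher in DKO cells. Without untreated or treated NTC replicate 2 or 3, *Mitf* was the 1 NTC call that remained, and it was lost once a trend in GC content and gene length was taken out. The *Pmel* call held in 8 of 21 fits and was lost without untreated NTC replicate 2 or 3, treated NTC replicate 1, any 1 untreated DKO replicate or treated DKO replicate 1 or 2. It was also lost without the filter, with library totals made equal, with median-ratio scaling and with only the 6 libraries of the comparison. The part of these markers in the genotype and IFNγ differences below was not tested. The listed genes of a library summed to between 844185 and 874612 TPM in NTC and between 805782 and 827191 TPM in DKO libraries.

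*Parp9* and *Dtx3l* are encoded side by side and head to head. In the GENCODE M21 annotation of GRCm38, *Parp9* (ENSMUSG00000022906) spans chr16:35938470-35972605 on the plus strand and *Dtx3l* (ENSMUSG00000049502) spans chr16:35926511-35939151 on the minus strand. Their spans overlap by 682 bases, of which 458 are exon bases of both, 9.4% of the exon bases of *Parp9* and 8.0% of those of *Dtx3l*. These libraries were unstranded, so reads from the 458 shared bases cannot be assigned to 1 of the genes, and each value below may hold a small part of the other's. The start region that both share is shown because both members rose; it is the RefSeq promoter window of *Dtx3l* on GRCm38.p6, chr16:35938978-35939277, minus strand, from 250 bases before to 50 bases after the start that RefSeq gives. Capitals mark the 50 bases shared by the annotated first exons of 1 *Parp9* and 1 *Dtx3l* transcript; other transcripts of *Parp9* also overlap *Dtx3l* here.
Dtx3l promoter: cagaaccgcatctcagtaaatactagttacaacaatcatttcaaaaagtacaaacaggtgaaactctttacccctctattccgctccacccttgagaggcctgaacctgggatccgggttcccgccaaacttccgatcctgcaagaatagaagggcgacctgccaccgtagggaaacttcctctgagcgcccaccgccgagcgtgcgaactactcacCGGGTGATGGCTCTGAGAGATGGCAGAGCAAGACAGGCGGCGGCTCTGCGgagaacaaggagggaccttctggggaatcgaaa

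*Parp9* encodes a PARP with macrodomains and little catalytic activity of its own, known as the partner of DTX3L. NTC cells had 5.56, 5.81 and 6.71 TPM of *Parp9* before and 15.5, 13.7 and 13.7 TPM after IFNγ. In DKO cells it stood at 6.19, 7.77 and 7.42 TPM untreated and at 15.1, 13.6 and 16 TPM with IFNγ. All 6 treated libraries lay above all 6 untreated libraries, with no overlap in either genotype. *Parp9* rose by 1.13 in NTC (SE 0.0934, adjusted p = 5.25e-06) and by 0.97 in DKO cells (SE 0.0934, adjusted p = 3.31e-05), ratios of mean TPM of 2.38 and 2.09. In bulk samples such as these, a change in the share of cells that express a gene and a change in RNA per cell cannot be told apart.

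*Dtx3l* encodes a deltex-family E3 ubiquitin ligase. It was at 1.59, 2.06 and 2.10 TPM without and 4.16, 4.08 and 5.33 TPM with IFNγ in NTC cells. DKO libraries held 3.00, 3.06 and 2.27 TPM untreated and 5.32, 5.20 and 5.21 TPM treated. Again the treated libraries were all higher, while the untreated DKO libraries also lay above the untreated NTC libraries. The rise with IFNγ was 0.92 in NTC (SE 0.117, adjusted p = 0.000408) and 0.73 in DKO cells (SE 0.117, adjusted p = 0.00483). *Dtx3l* was thus present at lower TPM than *Parp9* in each library, with *Parp9* between 2.07 and 3.74 times its level.

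*Parp14*, a macrodomain PARP that adds single ADP-ribose units, lies on the same chromosome at chr16:35832874-35871544, minus strand (ENSMUSG00000034422), its start 67.6 kb from that of *Dtx3l*. Its RNA was the scarcest of the 8, with NTC libraries at 0.723, 0.645 and 0.806 TPM untreated and 1.88, 2.11 and 2.13 TPM treated. In DKO cells *Parp14* was at 0.808, 0.735 and 0.922 TPM untreated and at 2.38, 2.60 and 2.74 TPM with IFNγ. Every untreated library was under 1 TPM and every treated one above it, so *Parp14* met the filter of at least 1 TPM in 3 libraries only through the treated libraries and had to differ between them; its call is a description and no support for the list. The rise was 0.82 in NTC (SE 0.103, adjusted p = 0.000376) and 0.97 in DKO cells (SE 0.103, adjusted p = 9.29e-05), while the means of *Parp14* differed by ratios of 2.82 and 3.13. With a pseudocount of 0.1 TPM in place of 1 TPM, the same differences of *Parp14* were 1.38 and 1.54, both past the test. Over all alternatives its adjusted p ran from 0.000119 to 0.00602 in NTC and from 2.91e-05 to 0.00276 in DKO cells.

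*Parp10* (ENSMUSG00000063268, chr15:76231174-76243441, minus strand) also encodes an enzyme that adds single ADP-ribose units. NTC libraries held 4.97, 5.68 and 5.09 TPM untreated and 9.88, 9.22 and 9.73 TPM treated. For DKO libraries the values were 5.25, 4.57 and 4.24 TPM, and 11, 8.91 and 8.26 TPM with IFNγ. The 2 treatments did not overlap in either genotype, though the treated DKO libraries of *Parp10* were spread more widely (SD 1.43) than the treated NTC libraries (SD 0.345). The difference with IFNγ was 0.77 in NTC (SE 0.0992, adjusted p = 0.000493) and 0.86 in DKO cells (SE 0.0992, adjusted p = 0.000237). *Parp10* shares 205 exon bases, 4.8% of its own, with *Plec* on the same strand, and how the estimation divided reads there was not tested.

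*Parp12* (ENSMUSG00000038507, chr6:39086410-39118349, minus strand) encodes a zinc-finger PARP with antiviral activity. It went from 5.52, 5.87 and 5.28 TPM to 17.1, 15.9 and 17.8 TPM in NTC cells. In DKO cells *Parp12* went from 4.27, 5.49 and 5.07 TPM to 16.2, 15.0 and 17.8 TPM. Treated libraries were about as far above untreated ones in both genotypes, and this was the largest difference among the 8 members. It came to 1.45 in NTC (SE 0.0872, adjusted p = 1.4e-07) and 1.54 in DKO cells (SE 0.0872, adjusted p = 8.4e-08), with ratios of mean TPM of 3.05 and 3.30. Because *Parp12* moved most, its RefSeq promoter window is shown, chr6:39118300-39118599 of GRCm38.p6, minus strand; capitals mark the 50 bases from the RefSeq start on.
Parp12 promoter: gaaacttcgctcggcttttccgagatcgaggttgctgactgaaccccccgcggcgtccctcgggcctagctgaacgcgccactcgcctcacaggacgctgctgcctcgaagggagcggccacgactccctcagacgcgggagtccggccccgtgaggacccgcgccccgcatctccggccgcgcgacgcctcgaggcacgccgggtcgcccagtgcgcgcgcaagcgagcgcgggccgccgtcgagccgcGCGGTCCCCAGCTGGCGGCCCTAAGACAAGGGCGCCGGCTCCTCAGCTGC

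**Figure D1:**
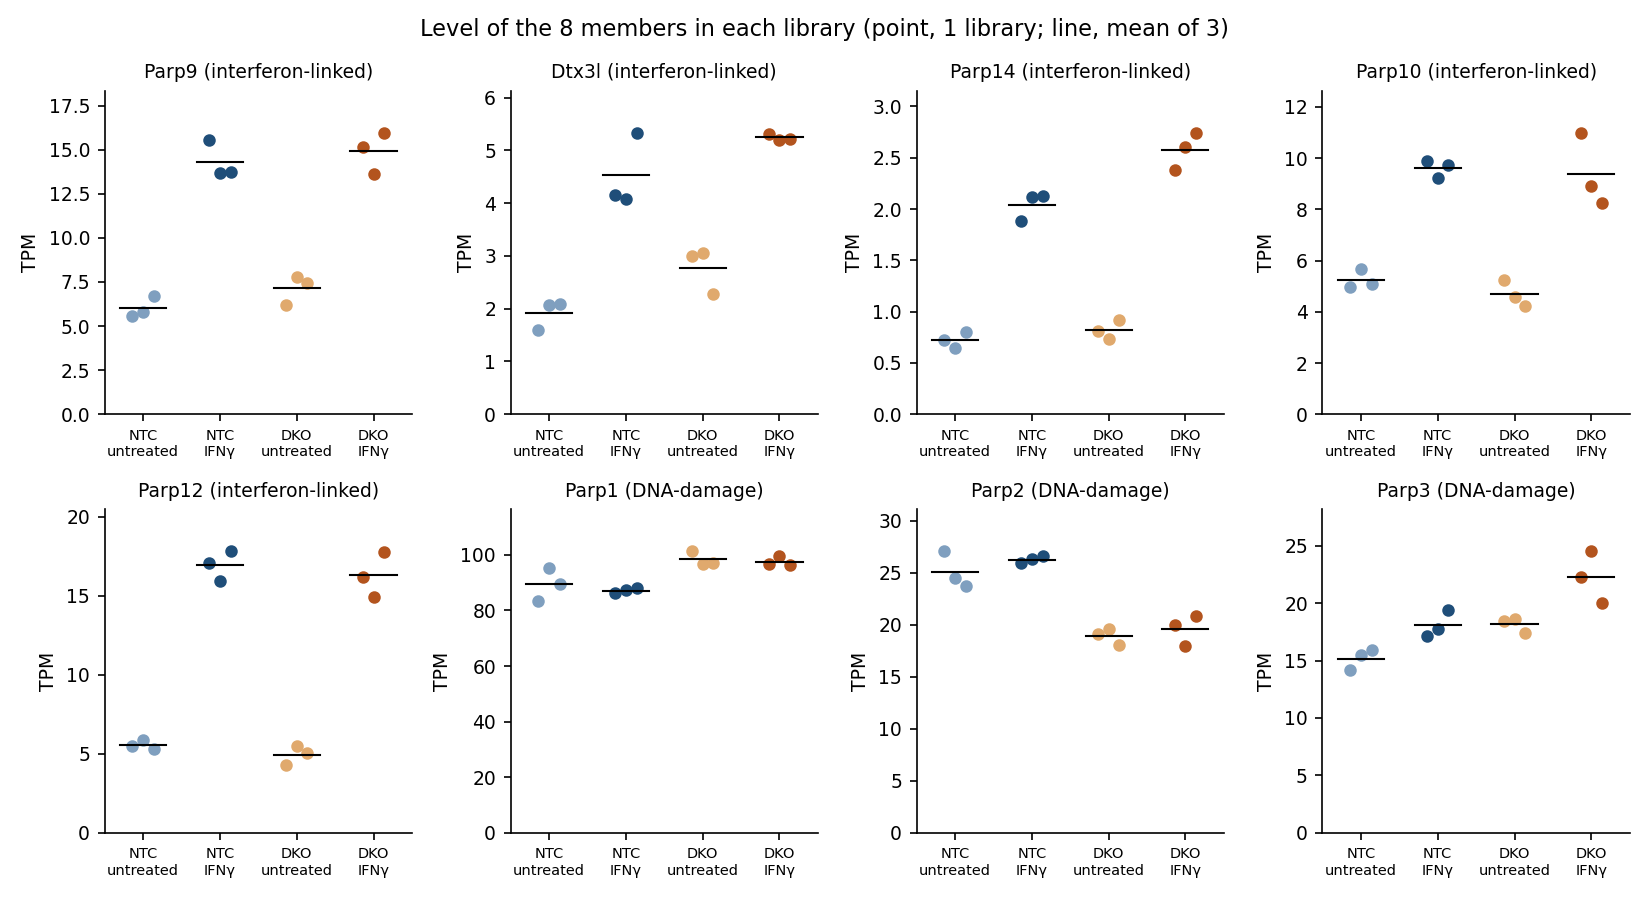
Level of each member in TPM (vertical axes, from 0) in the 12 libraries, by condition; points are libraries and lines the mean of 3. In the 5 interferon-linked panels, treated libraries lie above untreated ones in both genotypes, while the *Parp1* and *Parp2* panels separate by genotype and not by treatment.

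*Parp1* (ENSMUSG00000026496, chr1:180568924-180601254, plus strand) encodes the main DNA-break sensor of the family and was its most abundant member in TPM. NTC cells had 83.5, 95.1 and 89.6 TPM without IFNγ and 86.2, 87.2 and 88.0 TPM with it. Untreated DKO libraries held 101, 96.6 and 97.1 TPM and treated ones 96.8, 99.5 and 96.3 TPM. Treated and untreated libraries overlapped in both genotypes, whereas every DKO library lay above every NTC library. The IFNγ difference of *Parp1* was −0.03 in NTC cells (95% interval −0.13 to 0.07, adjusted p = 0.647) and −0.01 in DKO cells (−0.11 to 0.09, adjusted p = 0.967). Without untreated NTC replicate 2, the NTC difference of *Parp1* was 0.01 (adjusted p = 0.912), and without untreated DKO replicate 1 the DKO difference was 0.01 (adjusted p = 0.986). For comparison with *Parp12* and *Dtx3l*, the *Parp1* window is chr1:180568641-180568940, plus strand, on the same build, with capitals again for the 50 bases from the RefSeq start on.
Parp1 promoter: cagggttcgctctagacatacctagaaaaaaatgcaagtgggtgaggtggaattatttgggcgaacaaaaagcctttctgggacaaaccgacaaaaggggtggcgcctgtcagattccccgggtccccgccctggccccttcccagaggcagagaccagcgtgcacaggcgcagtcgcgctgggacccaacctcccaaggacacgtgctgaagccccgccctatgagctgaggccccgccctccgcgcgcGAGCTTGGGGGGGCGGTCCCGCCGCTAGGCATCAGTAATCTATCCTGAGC

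*Parp2* (ENSMUSG00000036023, chr14:50807841-50821301, plus strand) encodes the closest relative of PARP1. Levels in NTC cells were 27.1, 24.5 and 23.7 TPM, and 25.9, 26.3 and 26.6 TPM with IFNγ. DKO cells had 19.1, 19.6 and 18.1 TPM without and 19.9, 18.0 and 20.83 TPM with IFNγ. As with *Parp1* the treatments overlapped, and here all DKO libraries were the lower ones. The IFNγ difference of *Parp2* was 0.07 in NTC (95% interval −0.07 to 0.21, adjusted p = 0.519) and 0.04 in DKO cells (−0.10 to 0.18, adjusted p = 0.891).

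*Parp3* (ENSMUSG00000023249, chr9:106470322-106476949, minus strand) encodes the DNA-break PARP that attaches single units. NTC values were 14.2, 15.4 and 15.9 TPM untreated and 17.1, 17.7 and 19.4 TPM treated. DKO values were 18.5, 18.6 and 17.4 TPM untreated and 22.3, 24.5 and 20.0 TPM treated. Treated libraries lay above untreated ones within each genotype, but neither difference passed the test. *Parp3* was 0.24 higher in NTC (95% interval 0.08 to 0.40, adjusted p = 0.0544) and 0.28 higher in DKO cells (0.11 to 0.44, adjusted p = 0.175). Its NTC difference passed without treated NTC replicate 1 (0.27, adjusted p = 0.0485), treated DKO replicate 2 (0.24, adjusted p = 0.0301) or treated DKO replicate 3 (0.24, adjusted p = 0.031). The DKO libraries do not enter this difference, but they alter the shared estimate of the spread and the set of tested genes. The *Parp3* call was also gained when a trend in GC content and gene length was taken out (0.26, adjusted p = 0.0443). This alternative was added after seeing the data, and with replicate numbers also fitted as a block the call was not gained. Over all alternatives the adjusted p of *Parp3* ran from 0.0301 to 0.18. *Parp3* shares 20 exon bases (0.5%) with *Rrp9* on the opposite strand.

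Counted over the list, 5 of 5 interferon-linked and 0 of 3 DNA-damage members passed the test of treated against untreated NTC cells, all 5 in the higher direction, where 12.1% of the 11663 tested genes passed in either direction and 7.31% were higher. The 5 include *Parp14*, which had to differ. Leaving it aside, 4 of 4 passed. The members were chosen with earlier results of these data known, so these counts describe the list and are no test of it. Of the 3 DNA-damage members, 1, *Parp3*, had an unadjusted p under 0.05 in limma's test. The median difference of the 5 interferon-linked members, *Parp14* included, was 0.92 and that of the DNA-damage members 0.07, beside 0.02 over all tested genes. The number of genes called in NTC cells, 1411, rested on single libraries: it was 394 without untreated NTC replicate 2, 351 without untreated NTC replicate 3, 328 without treated NTC replicate 2 and 317 without treated NTC replicate 3. It was 897 with no filter on low values and 518 once the GC and length trend was taken out, the latter added after seeing the data. All 5 interferon-linked members passed in each of the 21 fits, these included. As deposited, 853 of the calls were higher and 558 lower with IFNγ, against 525 higher and 639 lower with library totals made equal and 607 higher and 637 lower with median-ratio scaling.

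In DKO cells the same 5 members were higher with IFNγ and again 0 of 3 DNA-damage members passed, where 0.78% of tested genes passed in either direction and 0.677% were higher. The 5 again include *Parp14*, which had to differ and gives no support to this count. As in NTC cells, the count describes a list chosen with earlier results known. *Parp3* alone among the 3 had an unadjusted p under 0.05 here too. In the same comparison *Cd68* went from a mean of 2.68 to 5.58 TPM. The other macrophage markers did not follow, with *Csf1r* at means of 0.273 and 0.283 TPM and *Adgre1* at 0. The part of *Cd68* in these differences was not tested. The median differences were 0.97 for the interferon-linked members, *Parp14* included, and 0.04 for the DNA-damage members, beside 0.01 over all tested genes. Ordered by log2 difference among all tested genes, *Parp12* held place 24 in NTC and place 18 in DKO cells, *Parp9* places 41 and 36, and *Dtx3l* places 55 and 59. *Parp14* stood at places 67 and 35, and *Parp10* at places 69 and 46. The log2(TPM + 1) scale lowers the place of genes near 1 TPM. In NTC cells *Parp14* had a larger ratio of mean TPM (2.82) than *Parp9* (2.38). The 3 DNA-damage members were farther down, *Parp3* at 728 and 236, *Parp2* at 4480 and 4063 and *Parp1* at 7337 and 6916.

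**Figure D2:**
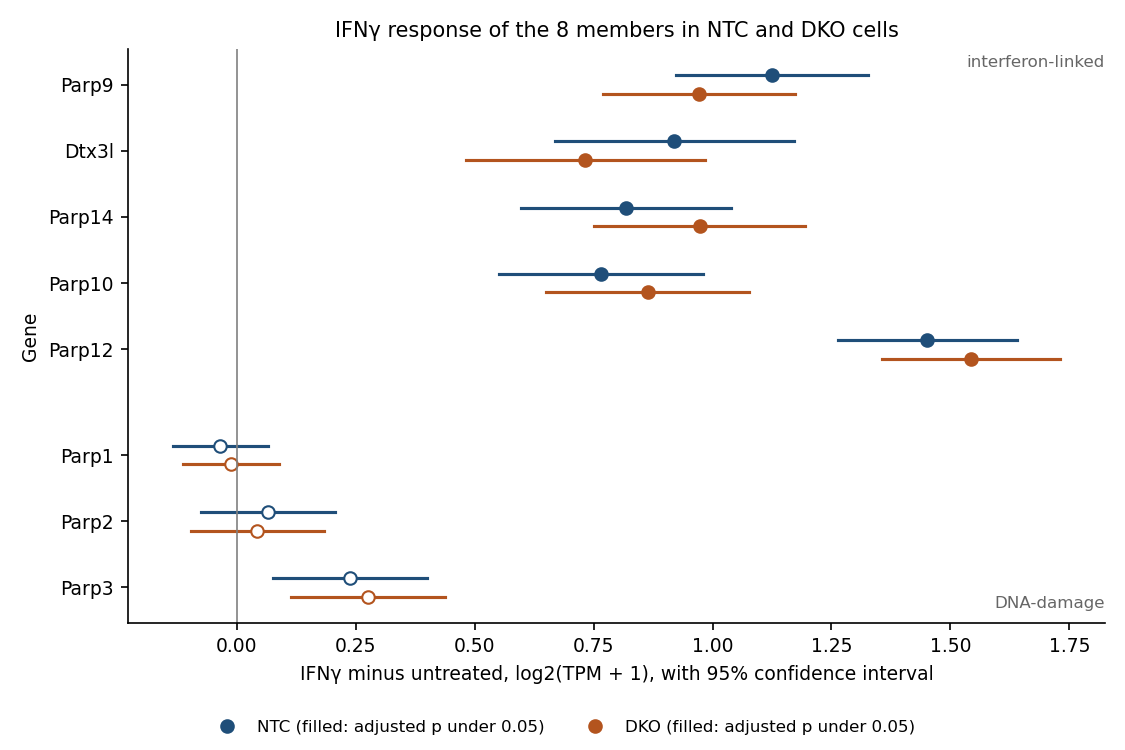
IFNγ response of the 8 members as a log2(TPM + 1) difference (horizontal axis) with its 95% confidence interval, in NTC (blue) and DKO cells (orange); filled points passed an adjusted p of 0.05. The 5 interferon-linked members lie between 0.73 and 1.54, and the DNA-damage members between −0.03 and 0.28.

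Whether the response differed between genotypes was tested directly, as the DKO difference minus the NTC difference. None of the 8 members passed limma's test of it, where 0.0343% of tested genes did so, 4 in all (0.00857% higher, 0.0257% lower), and 1340 had an unadjusted p under 0.05; for each of the 8 members the unadjusted p was above that. That number of 4 was 0 without any 1 untreated NTC replicate, untreated DKO replicate 2 or 3 or treated DKO replicate 1, 1 without treated NTC or DKO replicate 2 or 3, and 7 without treated NTC replicate 1. It was 10 with no filter on low values. *Parp9* responded by 0.15 less in DKO cells (−0.15, 95% interval −0.44 to 0.13) and *Dtx3l* by 0.19 less (−0.19, −0.54 to 0.17). *Parp14* gave 0.16 (−0.16 to 0.47), *Parp10* 0.10 (−0.20 to 0.40) and *Parp12* 0.09 (−0.17 to 0.36). These intervals reach from −0.54 to 0.47, so equal responses in both genotypes were not shown either. The intervals were narrower for *Parp1* (−0.12 to 0.16) and *Parp2* (−0.22 to 0.18), and that of *Parp3* ran from −0.19 to 0.27.

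Between untreated genotypes, 2 of the 3 DNA-damage members were higher and 1 was lower in DKO cells, and of the 5 interferon-linked members 1 was higher. This count of 4 among 8 stands beside a background in which 36.4% of tested genes passed, 17% higher and 19.4% lower, so it is near the background share and says little about the family. The background split was 1982 higher and 2265 lower as deposited and 2655 higher and 1722 lower with library totals made equal. *Parp2* was lower in DKO by −0.39 (SE 0.0649, adjusted p = 0.000457), all 3 untreated DKO libraries lying below all 3 NTC libraries, and it passed in each of the 21 fits. *Parp3* was higher by 0.25 (SE 0.0752, adjusted p = 0.0205) and *Parp1* by 0.14 (SE 0.0466, adjusted p = 0.033), and *Dtx3l* was higher by 0.37 (SE 0.117, adjusted p = 0.0239). These 3 calls depended on single libraries. *Dtx3l* did not pass without untreated NTC replicate 1 (0.29, adjusted p = 0.103), untreated DKO replicate 1 (0.33, adjusted p = 0.0825) or untreated DKO replicate 2 (0.32, adjusted p = 0.0887). *Parp3* did not pass without the same libraries, at 0.20 (adjusted p = 0.0863), 0.23 (adjusted p = 0.0601) and 0.23 (adjusted p = 0.0644). *Parp1* did not pass without untreated NTC replicate 1 (0.09, adjusted p = 0.149) or 3 (0.14, adjusted p = 0.0725), without untreated DKO replicate 1 (0.12, adjusted p = 0.116), 2 (0.15, adjusted p = 0.0531) or 3 (0.15, adjusted p = 0.0617), or with only the 6 libraries of the comparison (0.14, adjusted p = 0.0611). *Parp9* differed by 0.21 (adjusted p = 0.0983); it passed without untreated DKO replicate 1 (0.29, adjusted p = 0.0313) and with library totals made equal (0.25, adjusted p = 0.0473). Across the alternatives, adjusted p ran from 0.0108 to 0.103 for *Dtx3l*, from 0.0107 to 0.0863 for *Parp3*, from 0.00947 to 0.149 for *Parp1* and from 0.0313 to 0.291 for *Parp9*.

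With IFNγ, 3 of 3 DNA-damage and 0 of 5 interferon-linked members passed between genotypes, where 43.3% of tested genes did, 19.5% higher and 23.9% lower. For all genes the split was 2271 higher and 2782 lower in DKO as deposited and 3283 higher and 1746 lower with library totals made equal. *Parp2* was lower by −0.41 (SE 0.0649, adjusted p = 0.000253), and *Parp3* was higher by 0.28 (SE 0.0752, adjusted p = 0.00825), both in each of the 21 fits. *Parp1* was higher by 0.16 (SE 0.0466, adjusted p = 0.0135), and its call was lost once the GC and length trend was taken out (added after seeing the data; 0.10, adjusted p = 0.0554), within a range of 0.00167 to 0.0678 over all alternatives. Here too the 3 of 8 members are near the background share and say little about the family. Of the interferon-linked members 1, *Parp14*, had an unadjusted limma p under 0.05. Its difference of 0.23 between treated DKO and NTC cells did not pass (95% interval 0.01 to 0.46, adjusted p = 0.0828), although all 3 treated DKO libraries exceeded all 3 treated NTC libraries. It passed without the filter (adjusted p = 0.04), with library totals made equal (0.29, adjusted p = 0.0326) and once the GC and length trend was taken out, which was added after seeing the data (0.26, adjusted p = 0.0487). With the trend taken out and replicate numbers fitted as a block together, it did not pass. For *Parp14* all alternatives spanned adjusted p from 0.0326 to 0.199. *Parp10* differed by −0.04 and *Parp12* by −0.05 as deposited, and by 0.04 and 0.03 with library totals made equal, none of which passed.

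**Figure D3:**
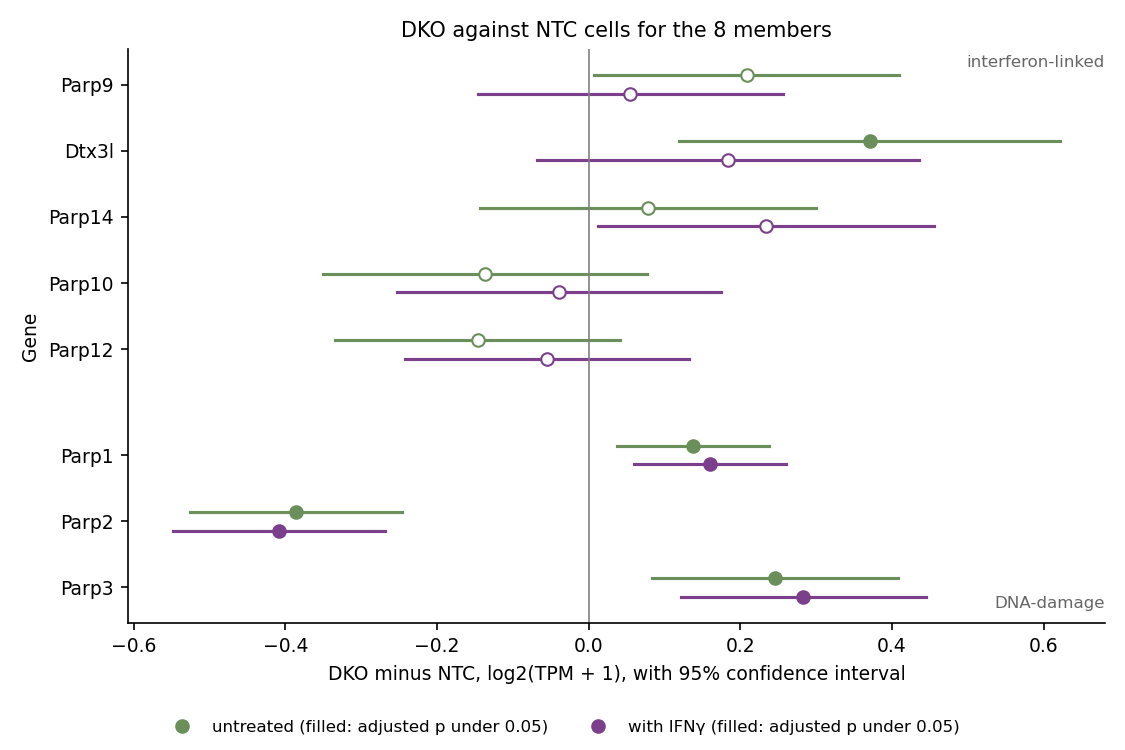
DKO minus NTC difference of the 8 members on the log2(TPM + 1) scale (horizontal axis) with its 95% confidence interval, untreated (green) and with IFNγ (purple); filled points passed an adjusted p of 0.05. *Parp2* lies at −0.39 and −0.41, *Parp1* and *Parp3* lie between 0.14 and 0.28, and of the interferon-linked members *Dtx3l* in untreated cells is the filled point; the small differences of *Parp10* and *Parp12* with IFNγ change sign when libraries are scaled to the same total.

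Summed in TPM, the 5 interferon-linked members came to between 18.4 and 20.1 TPM in untreated and between 45.1 and 48.7 TPM in treated NTC libraries. In DKO libraries the sum was 19.5 to 21.6 TPM untreated and 45.3 to 50 TPM treated. The 3 DNA-damage members summed to between 125 and 135 TPM over the NTC libraries and to between 133 and 142 TPM over the DKO libraries. The interferon-linked share of all member RNA therefore went from a mean of 13.1% (SD 0.304, n = 3) to 26.5% (SD 0.881, n = 3) in NTC cells and from 13.1% (SD 0.75, n = 3) to 25.8% (SD 1.39, n = 3) in DKO cells. Even in treated cells, then, most of the RNA of these 8 genes came from the DNA-damage members, and *Parp1* alone exceeded the 5 interferon-linked members together in each library. In untreated NTC cells the order by mean TPM was *Parp1* (89.4), *Parp2* (25.1), *Parp3* (15.2), *Parp9* (6.03), *Parp12* (5.56), *Parp10* (5.25), *Dtx3l* (1.92) and *Parp14* (0.725). *Parp9*, *Parp12* and *Parp10* overlapped there. In treated NTC cells it was *Parp1* (87.1), *Parp2* (26.3), *Parp3* (18.1), *Parp12* (16.9), *Parp9* (14.3), *Parp10* (9.61), *Dtx3l* (4.53) and *Parp14* (2.04), with *Parp3* and *Parp12* overlapping. Untreated DKO cells had the order of untreated NTC cells, there with *Parp9* clear of *Parp12* and with overlap of *Parp2* with *Parp3* and of *Parp12* with *Parp10*. In treated DKO cells *Parp3* (22.3) had the higher mean and *Parp2* (19.6) the lower, again with overlap, and *Parp12* (16.3) overlapped *Parp9* (14.9).

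Position was compared next, since 3 of the 5 interferon-linked members lie within one stretch of chromosome 16. Of 8 listed genes that start within 200 kb of *Parp14*, *Dtx3l* or *Parp9*, 6 were tested. In NTC cells *Kpna1*, an importin, was higher by 0.20 (adjusted p = 0.0423) and *Fam162a*, a mitochondrial protein gene, by 0.17 (adjusted p = 0.0258); in DKO cells 0 of the 6 passed limma's test. These 2 of 6 and 0 of 6 stand beside 12.1% and 0.78% of all tested genes, and at an unadjusted p under 0.05 there were 4 and 0. Neither NTC call was firm, with *Kpna1* passing in 7 of 21 fits (0.08 to 0.24, adjusted p up to 0.297) and *Fam162a* in 14 of 21 (0.07 to 0.19, adjusted p up to 0.26). Both were lost without untreated NTC replicate 2 or 3 or treated NTC replicate 2 or 3. *Fam162a* was lost also without untreated NTC replicate 1, and *Kpna1* also without treated NTC replicate 1, untreated DKO replicate 2 or 3 or treated DKO replicate 1. Among other fits, both were lost once the GC and length trend was taken out, and *Kpna1* without the filter and with either scaling. *Ccdc58* differed by 0.25 (adjusted p = 0.101) and passed without treated DKO replicate 2 (adjusted p = 0.0401). The other tested neighbors, *Dirc2*, *Hspbap1* and *Wdr5b*, ran from −0.14 to 0.16 in NTC cells. *Hspbap1* is the tested gene next to *Parp14* on the side away from *Dtx3l*, and *Kpna1* starts 39.6 kb from the start of *Dtx3l*, beyond *Parp9*, so genes on both sides of the 3 members showed smaller differences than the 0.73 to 1.13 of the members themselves.

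**Figure D4:**
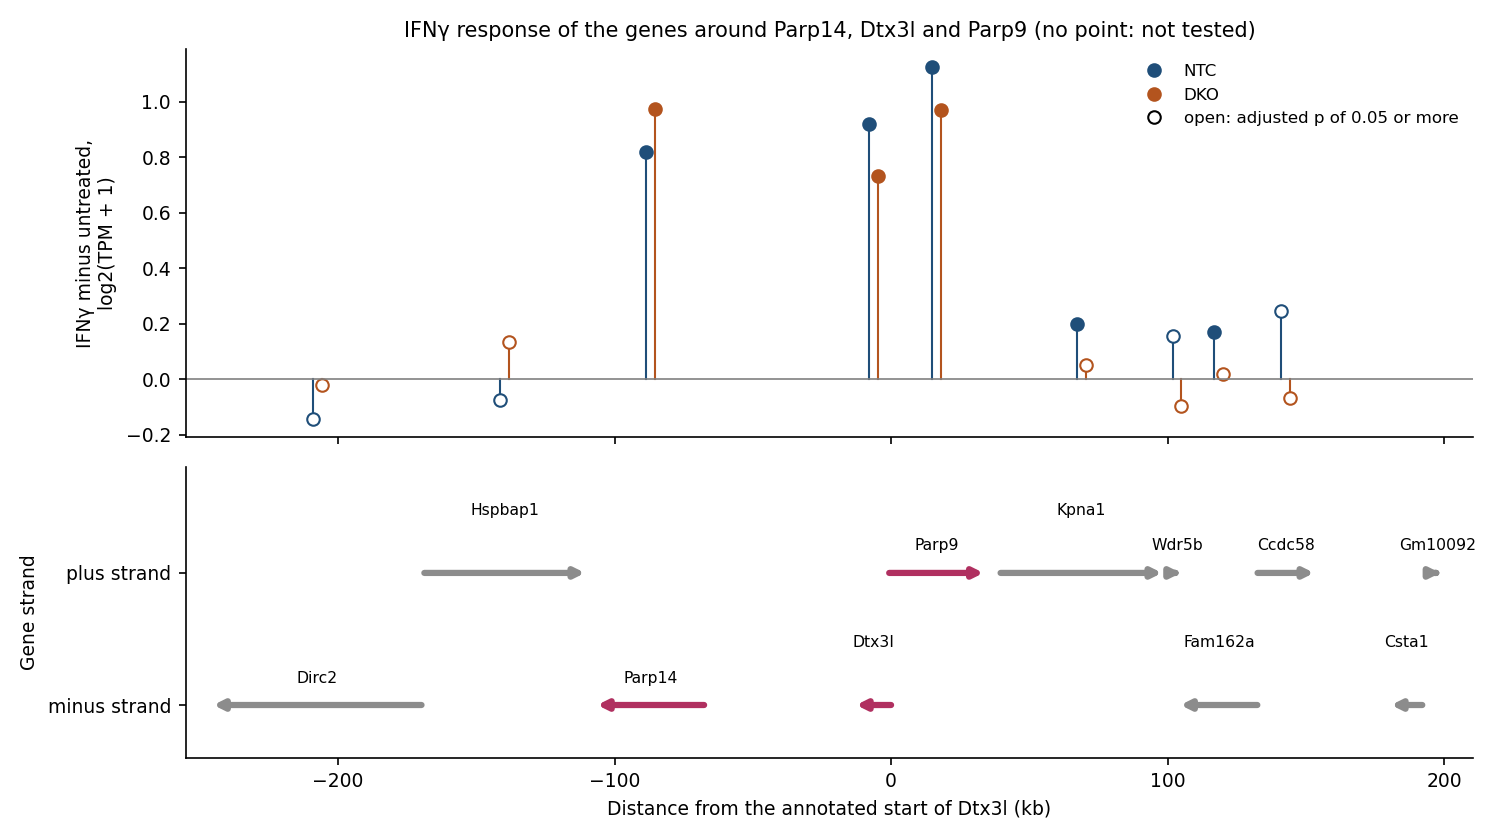
Map of the genes around *Parp14*, *Dtx3l* and *Parp9* by distance from the annotated start of *Dtx3l* in kb (horizontal axis; arrows show strand, members in red), with the IFNγ response of each tested gene above it as a log2(TPM + 1) difference in NTC (blue) and DKO cells (orange); filled points passed an adjusted p of 0.05. The 3 members stand at 0.73 to 1.13, and the 6 tested neighbors between −0.14 and 0.25.

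The table of RefSeq promoter windows used here held 5 of the 8 members, *Parp1*, *Parp2*, *Parp3*, *Parp12* and *Dtx3l*; *Parp9*, *Parp10* and *Parp14* had no entry in it. The windows were searched on both strands for an interferon-stimulated response element, spelled as GAAA, any 2 bases and GAAA, and for AANNGAAA, a core bound by interferon regulatory factors that any such element also holds. These patterns occur in 3.44% and 23.9% of all 32851 mouse windows of the same length. The first was not in any of the 5 windows. AANNGAAA occurred in the *Dtx3l* window as AATCGAAA at bases 293 to 300, after the RefSeq start, and in the *Parp2* window as AAACGAAA at bases 157 to 164 on the other strand. The *Parp12* window printed above held no match, nor did that of *Parp1*. *Parp12* had 46 CpG dinucleotides and 73.7% G and C, and 98.6% of all windows had no more CpG than that; the other 4 held 16 to 25 CpG, against a median of 7 over all windows. A match here describes letters and not a bound site, and no match says only that the letters are not in these 300 bases.

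Genes of the same pathways were read from lists, each beside the median of all tested genes, 0.02 in NTC and 0.01 in DKO cells. Among 9 other PARP genes, 3 were higher with IFNγ in NTC cells and 0 in DKO cells, with medians of 0.15 and 0.08, where 7.31% of tested genes were higher in NTC and 0.677% in DKO cells. In DKO cells 3 had an unadjusted limma p under 0.05, and the counts of 3 and 0 are not a test of a difference between genotypes. Over the alternatives the DKO count was 0 to 1. The 3 were *Tnks2*, a tankyrase (0.21, adjusted p = 0.0172), *Parp11*, a mono-ADP-ribosyltransferase (0.36, adjusted p = 0.0258), and *Tiparp*, also known as PARP7 (0.31, adjusted p = 0.03). Each lost its call without untreated NTC replicate 2 or 3 or treated NTC replicate 2 or 3, the libraries on which the whole NTC count rested, and *Tiparp* also without untreated NTC replicate 1. All 3 calls were lost once the GC and length trend was taken out, and that of *Tiparp* without the filter. Over the alternatives the difference ran from 0.11 to 0.23 for *Tnks2* (adjusted p up to 0.133), from 0.29 to 0.42 for *Parp11* (up to 0.101) and from 0.18 to 0.34 for *Tiparp* (up to 0.118). In DKO cells *Parp11* differed by 0.33 (adjusted p = 0.175), close to its NTC value, and passed without treated DKO replicate 2 (adjusted p = 0.0404). *Zc3hav1*, the catalytically inactive zinc-finger antiviral protein also called PARP13, was at 0.13 in NTC cells (adjusted p = 0.114) and was lower in DKO than NTC cells by −0.32 untreated (adjusted p = 0.000464) and −0.31 with IFNγ (adjusted p = 0.000602). So the other PARP genes of this list had smaller IFNγ differences in NTC cells than the 0.77 to 1.45 of the interferon-linked members.

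Of 4 other deltex genes, *Dtx2* and *Dtx3* were tested and neither passed with IFNγ (−0.09 and −0.17 in NTC cells), though *Dtx3* passed as lower there without treated DKO replicate 2 or 3 (adjusted p from 0.045 to 0.926 over all alternatives); *Dtx1* and *Dtx4* did not exceed 0.0717 and 0.181 TPM. Between genotypes *Dtx2* was higher in untreated DKO cells (0.37, adjusted p = 0.00386), as *Dtx3l* was, and *Dtx3* was lower (−0.32, adjusted p = 0.00078).

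Enzymes that take ADP-ribose off again showed 1 of 6 higher with IFNγ in NTC and 0 of 6 in DKO cells, where 7.31% and 0.677% of tested genes were higher, with medians of −0.07 and −0.05. At an unadjusted limma p under 0.05 there were 3 of the 6 in NTC and 0 in DKO cells. The 1 was *Macrod2*, a macrodomain hydrolase (0.33, adjusted p = 0.044), which passed in 9 of 21 fits (0.23 to 0.41, adjusted p up to 0.17). *Macrod2* lost its call without untreated NTC replicate 1 or 3, treated NTC replicate 2 or 3, or untreated DKO replicate 2 or 3. Among other fits it was lost without the filter, with library totals made equal, with median-ratio scaling and once the GC and length trend was taken out. *Adprh*, *Oard1* and *Parg* differed by −0.16, 0.16 and −0.01, and *Oard1* passed without untreated NTC replicate 2 (0.26, adjusted p = 0.024). The NTC count was 0 to 2 over the alternatives. Partners of PARP1 and PARP2 in strand-break repair gave 0 of 10 in both genotypes, with medians of 0.04 and −0.02. At an unadjusted limma p under 0.05 there were 2 of the 10 in NTC and 0 in DKO cells. The most abundant were *Hpf1*, which completes the active site of PARP1 and PARP2 (0.23, adjusted p = 0.0534), the scaffold *Xrcc1* (−0.05), the endonuclease *Apex1* (0.04) and the flap nuclease *Fen1* (−0.04). *Hpf1* passed without treated DKO replicate 2 or 3 and with only the 6 libraries of the comparison, within an adjusted p range of 0.00506 to 0.317. In untreated DKO cells 3 of the 10 were higher and 1 lower than in NTC cells, where 17% of tested genes were higher and 19.4% lower, so the 4 of 10 are near the background share of 36.4%. With IFNγ 4 were higher and 2 lower, beside 19.5% and 23.9% of tested genes, and over the alternatives 3 to 5 were higher and 0 to 3 lower. The number lower was 0 without treated DKO replicate 1 and 1 without treated DKO replicate 2 or treated NTC replicate 1 or 2, and it was also 0 with library totals made equal, where 5 were higher. *Apex1* was higher in untreated DKO cells by 0.33 (adjusted p = 0.00153).

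In NAD synthesis, which supplies the substrate of PARPs, 1 of 5 tested genes was higher with IFNγ in NTC and 0 of 5 in DKO cells, beside 7.31% and 0.677% of all tested genes. At an unadjusted limma p under 0.05 there were 2 of the 5 in NTC and 1 in DKO cells. Over the alternatives the NTC count was 0 to 2, with 2 without untreated NTC replicate 1. The NTC call was *Nampt*, the rate-limiting enzyme of NAD salvage, at 146, 157 and 155 TPM untreated and 176, 196 and 182 TPM treated in NTC cells (0.28, adjusted p = 0.00579). Its call was lost once the GC and length trend was taken out, which was added after seeing the data (adjusted p = 0.0627). Over the alternatives the NTC difference of *Nampt* ran from 0.15 to 0.31. *Nampt* was also lower in DKO cells, by −0.28 untreated (adjusted p = 0.000691) and −0.44 with IFNγ (adjusted p = 1.28e-05).

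For scale, 6 of 10 genes of IFNγ signaling and its targets were higher in NTC and 5 of 10 in DKO cells, against 7.31% and 0.677% of tested genes, with medians of 0.75 and 0.58. Over the alternatives the NTC count was 5 to 6. *Gbp2*, a guanylate-binding protein gene, rose by 2.83 in NTC and 2.55 in DKO cells, and *Tap1*, a peptide transporter, by 2.66 and 1.79. The rise of *Irf9*, an interferon regulatory factor gene, was 1.29 and 0.96, both past the test. *Tap1* met the filter only with treated libraries counted, as 2 of its 6 untreated libraries, from DKO cells, reached 1 TPM. This did not force a difference within DKO cells, but the call of *Tap1* is given as a description. Leaving it aside, 5 of 9 and 4 of 9 passed. In NTC cells *Parp12* lay between *Gbp2* and *Irf9*, and the other 4 interferon-linked members lay below *Irf9*.

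**Figure D5:**
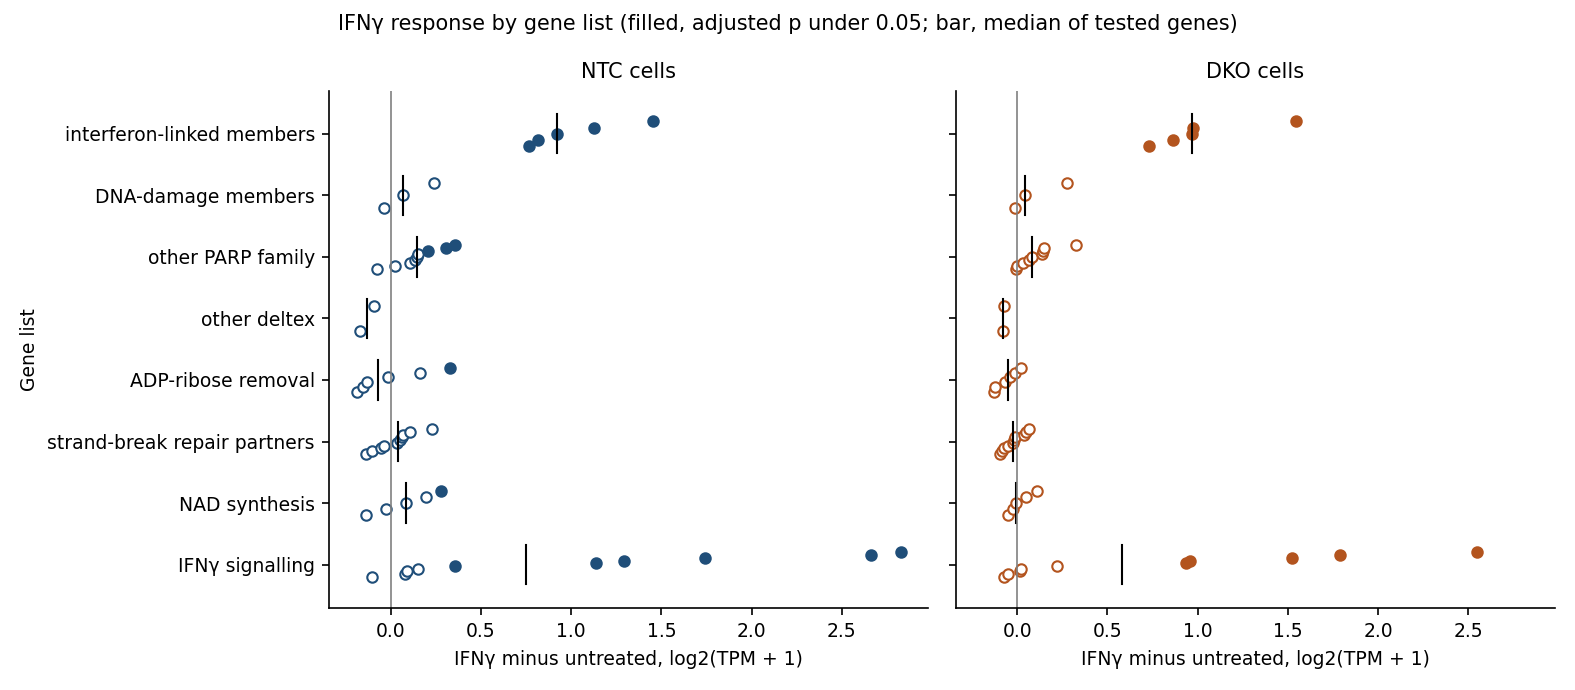
IFNγ response of every tested gene of each list as a log2(TPM + 1) difference (horizontal axes) in NTC (left) and DKO cells (right); points are genes, filled where the adjusted p was under 0.05, and bars are list medians. The interferon-linked members overlap the signaling list, whereas no DNA-damage member or repair partner is filled; the highest of them are *Parp3* at 0.24 in NTC and 0.28 in DKO cells and *Hpf1* at 0.23 in NTC cells.

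Genes most like a member were found by Pearson's r on log2(TPM + 1) over the 12 libraries, members left out. For the interferon-linked members the 12 points fall into treated and untreated sets, so r mostly restates that split, and it is given without a test. Nearest to *Parp9* were *Irf9* (0.984), *Psmb10* (0.982), *Gbp2* (0.981), *Rsad2* (0.979) and *Ifitm3* (0.976). For *Dtx3l* they were *Irf1* (0.977), *Cadm1* (0.971), *Lgals3bp* (0.971), *Irgm1* (0.969) and *Ddx58* (0.964). *Irf1* was, like *Dtx3l*, higher in untreated DKO than NTC cells (0.53, limma adjusted p = 7.83e-05). In that comparison 4 of the 10 signaling genes, *Irf1* included, and 17% of all tested genes were higher, and the *Dtx3l* call depended on single libraries. *Parp14* was nearest to *Tapbp* (0.99), *Lgals3bp* (0.981), *Rsad2* (0.976), *Stat3* (0.973) and *Gbp3* (0.973). *Parp1*, whose libraries split by genotype, was nearest to *Ncapd2* (0.966), *Tubb6* (0.962), *Fkbp4* (0.96), *Fbl* (0.957) and *Carm1* (0.956), none of them in the lists above.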

How the data were processed

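The 8 genes and all lists were chosen with earlier results of these data known. Starting values were the authors' TPM, in a table named for counts. Poly(A)-selected, unstranded libraries were quantified with RSEM 1.2.4 calling Bowtie, with unaligned reads passed to TopHat (version as given, 20.8b) on mm10. Scaling between libraries is not given in the sources used here. The authors give an approximate number of reads per sample, but TPM keep no counts, so the depth of each library is unknown and precision comes from replicate spread. A count test planned in case the table held counts was not used.

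The filter kept genes at 1 TPM or more in 3 or more of 12 libraries (11663 of 23022, all 8 members included). limma 3.58.1 in R 4.3.3 fitted log2(TPM + 1) with 1 mean per condition, a variance prior following mean expression and 5 contrasts: IFNγ in NTC, IFNγ in DKO, their difference, and DKO against NTC untreated and treated. The Benjamini-Hochberg threshold was 0.05, and the fit was tested on simulated data. No 2 libraries held identical values; correlations ran from 0.993 to 0.996 within conditions and 0.977 to 0.994 between them.

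Named genes were every member, *Mbnl1* and *Mbnl2*, up to 4 per list (those passing in NTC cells by adjusted p, then the most abundant), the 5 most like *Parp14*, *Parp9*, *Dtx3l* and *Parp1*, and listed neighbors. Of the signaling list, 1 gene that this rule names is not reported here, nor is 1 promoter search result that needs it. Older symbols were matched by gene ID. Coordinates, GC content and length came from GENCODE M21 (GRCm38; 22251 listed genes matched, 11563 of those tested), promoter windows from RefSeq GRCm38.p6. Alternatives were a pseudocount of 0.1 TPM, no filter, a replicate block, each library left out, equal totals, median-ratio scaling, only the 6 libraries compared and, added after seeing the data, removal of a GC and length trend, alone and with the block. Counting these and the fit as described, there were 21 fits. Scripts ran in Python 3.11.15 with pandas 2.3.3, numpy 2.4.6 and matplotlib 3.10.9.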

Additional observations from a re-analysis of the deposited data

How the results depend on the processing

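Every alternative gave all 5 interferon-linked members as higher with IFNγ in both genotypes, and *Parp2* as lower in DKO cells under both treatments. Of the 5, *Parp14* met the filter only through treated libraries and had to differ, so its calls are a description. What moved for the members is given here, and none of their small differences that changed sign passed the test with either sign. Among the melanocyte markers, the IFNγ difference of *Sox10* in NTC cells (−0.25, adjusted p = 0.0439) ran from −0.29 to 0.01. It was called in 9 of 21 fits.

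The number of genes called for IFNγ in NTC cells, 1411, was 897 with no filter on low values and 518 once the GC and length trend was taken out (added after seeing the data). Leaving out single libraries gave 317 (without treated NTC replicate 3) to 2023 (without treated DKO replicate 2). The DNA-damage members called there, 0, became 1, *Parp3*, with the trend taken out and ranged from 0 to 1 with single libraries left out. The number of genes called for the difference of responses, 4, was 10 with no filter and from 0 to 7 with single libraries left out.

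Between untreated genotypes, the interferon-linked members called, 1, were 2 with library totals made equal, *Parp9* being added, and 0 to 1 with single libraries left out. The DNA-damage members called, 3, were 1 to 3 with single libraries left out. With IFNγ, the interferon-linked members called, 0, were 1, *Parp14*, with no filter, with library totals made equal and with the trend taken out.

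Replicate numbers were also fitted as a block. The labels do not say whether equal numbers pair libraries. Deviations from the condition means correlated by −0.179 to 0.119 between libraries of equal number, in the pairs of conditions compared. These values show no clear pairing but cannot tell whether such libraries were handled together. With the block, the IFNγ calls of *Kpna1* and *Macrod2* in NTC cells and of *Pmel* in DKO cells did not pass, the genes called for the difference of responses were 2, and with the block and the trend taken out together the genes called for IFNγ in NTC cells were 410. With both, as with the trend alone, *Parp2* was −0.0029 for IFNγ in NTC cells, and the difference of responses was −0.0256 for *Parp10*, −0.0198 for *Parp1* and 0.0223 for *Parp2*.

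Changes of sign when single libraries were left out were as follows. The IFNγ difference of *Parp1* in NTC cells ran from −0.0823 to 0.011 (without untreated NTC replicate 2), and in DKO cells from −0.0266 to 0.0089 (without untreated DKO replicate 1). That of *Parp2* in DKO cells ran from −0.0007 (without treated DKO replicate 3) to 0.1009. The difference of responses ran from −0.0099 (without treated DKO replicate 1) to 0.1763 for *Parp10*, from −0.0231 (without untreated NTC replicate 2) to 0.0702 for *Parp1* and from −0.0319 (without treated DKO replicate 2) to 0.1086 for *Parp3*. For *Parp2* it ran from −0.0761 to 0.0353 (without treated DKO replicate 2), and was above 0 also without untreated NTC replicate 3 (0.0166) or untreated DKO replicate 2 (0.0022). The genotype difference with IFNγ ran from −0.147 to 0.0393 (without treated DKO replicate 3) for *Parp10* and from −0.1152 to 0.0019 (without treated DKO replicate 2) for *Parp12*.

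With library totals made equal, the difference of responses of *Parp2* was 0.0125, and the genotype difference with IFNγ was 0.0394 for *Parp10* and 0.0269 for *Parp12*. With the GC and length trend taken out, *Parp2* was −0.0029 for IFNγ in NTC cells, and the difference of responses was −0.0256 for *Parp10*, −0.0198 for *Parp1* and 0.0223 for *Parp2*.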
